A study of Mus musculus with 12 samples.

Results

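Cell cycle genes were examined in cells sorted from the mouse spinal cord as astrocytes: 14 genes of DNA replication, 28 genes of mitosis and 6 genes of G1 and the G1/S transition. The 48 genes were taken by symbol from the 16389 genes of the normalized count table, and all 48 were present and tested. Cells were sorted by eGFP, which the transgene expresses under the Aldh1l1 promoter, from adult male Aldh1l1-EGFP mice (Swiss Webster background, 12 weeks old at lesion). The groups were full transection (FT) after 2 weeks (3 libraries), FT after 1 week (1 library), hemisection (HS) after 2 weeks (2 libraries), HS after 1 week (3 libraries) and non-injured spinal cord (NI, 3 libraries). All groups carried the transgene, lesions were thoracic, and each library pooled living eGFP-positive cells of several mice, so a p-value measures the spread between such pools. FT 1 week had no replicate, and its spread was taken to be that of the other groups. Values below are normalized counts (counts scaled to an effective library size) in replicate order within each group, and a library is named by its group and replicate number.

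A dividing cell copies its DNA in S phase and parts the copies in mitosis, and the genes for these steps are switched on in 2 waves. The MCM helicase is loaded on DNA by Cdc6 and Cdt1, while PCNA clamps the polymerase and ribonucleotide reductase makes the nucleotides. These genes are classical targets of E2F factors at the G1/S transition. Mitotic genes peak later, and many are driven through a CHR element by MuvB complexes and through CCAAT boxes by NF-Y. Cyclin D and its kinases start the sequence in G1, and p21 (Cdkn1a) halts it. Most astrocytes of the adult cord are quiescent, and a share of them divides after a lesion.

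The promoters of replication and mitotic genes held different motifs, a measure that used no expression value. RefSeq promoters (GRCm38.p6, 250 bases before to 50 after the start) were held for 12 of 14 replication genes (14 promoters), 24 of 28 mitotic genes (25 promoters) and 3 of 6 G1 genes (4 promoters). The letters TTTGAA of the CHR stood on either strand in 17 of 25 mitotic promoters (68.0%), in 1 of 14 replication promoters (7.14%) and in 17.9% of the 32851 promoters of the table. All 17 also held CCAAT, a combination found in 6.95% of all promoters. An E2F site, TTTCCCGC or TTTGGCGC on either strand, stood in 6 of 14 replication promoters (42.9%), in 0 of 25 mitotic promoters and in 1.56% of all. CCAAT alone did not part the classes (84.0% of mitotic, 78.6% of replication and 37.4% of all promoters), and CCAATTGG, which reads as CCAAT on both strands, was counted on each. None of these letters stood in the 4 promoters of the G1 genes held. The 200 bases before the start are shown for 3 mitotic and 2 replication genes, chosen to show both kinds, 5′ to 3′ on the gene's strand, with matches in capitals. TTTGAA or TTCAAA is the CHR, CCAAT or ATTGG the CCAAT box, and GCGCCAAA or TTTGGCGC the E2F site.
Top2a (chr11:99024190-99024389, minus strand): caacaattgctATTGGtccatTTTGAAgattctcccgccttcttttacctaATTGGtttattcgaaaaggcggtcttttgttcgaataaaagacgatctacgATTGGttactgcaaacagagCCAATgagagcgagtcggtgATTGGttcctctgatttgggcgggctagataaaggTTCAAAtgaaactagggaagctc
Cdk1 (chr10:69352913-69353112, minus strand): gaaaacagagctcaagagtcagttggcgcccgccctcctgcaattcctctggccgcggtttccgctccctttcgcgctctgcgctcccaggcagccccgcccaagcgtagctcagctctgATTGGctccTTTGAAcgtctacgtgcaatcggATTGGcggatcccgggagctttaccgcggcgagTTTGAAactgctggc
Ube2c (chr2:164769729-164769928, plus strand): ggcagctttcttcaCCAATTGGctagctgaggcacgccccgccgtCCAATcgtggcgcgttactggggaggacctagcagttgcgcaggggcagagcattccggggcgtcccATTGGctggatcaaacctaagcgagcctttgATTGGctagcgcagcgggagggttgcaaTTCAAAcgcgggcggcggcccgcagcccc
Mcm5 (chr8:75109309-75109508, plus strand): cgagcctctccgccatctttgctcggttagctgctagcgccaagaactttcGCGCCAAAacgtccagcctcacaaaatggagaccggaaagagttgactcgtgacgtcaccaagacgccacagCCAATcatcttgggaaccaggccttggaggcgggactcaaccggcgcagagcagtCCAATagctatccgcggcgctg
Mcm6 (chr1:128359706-128359905, minus strand): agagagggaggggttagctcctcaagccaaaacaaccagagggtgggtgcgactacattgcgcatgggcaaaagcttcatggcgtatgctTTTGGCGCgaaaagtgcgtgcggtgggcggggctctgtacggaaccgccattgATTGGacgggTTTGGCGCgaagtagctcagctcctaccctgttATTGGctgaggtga
The last CHR lies 23 bases before the start in Top2a, 15 in Cdk1 and 29 in Ube2c, with CCAAT boxes upstream of it. A match describes letters and is not evidence of binding.

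**Figure D1:**
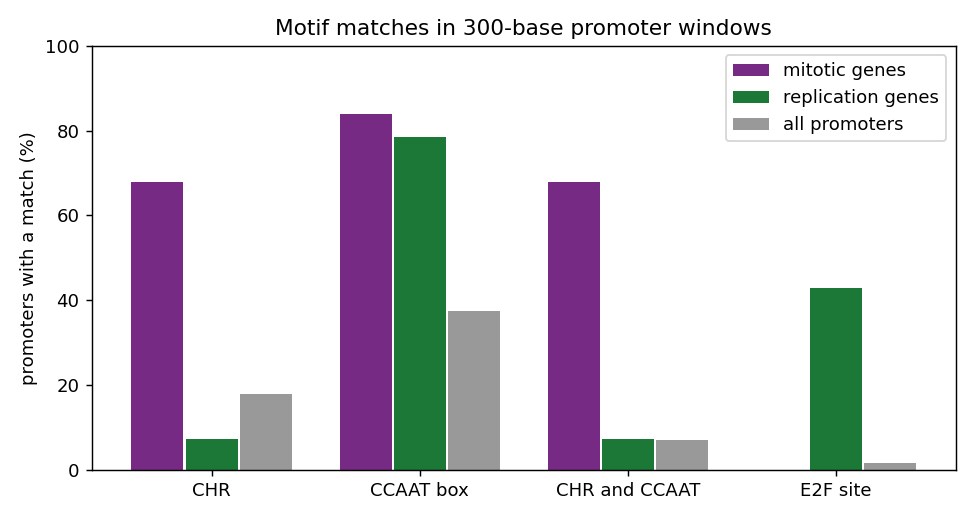
Share of promoters (vertical axis, %) that hold each motif on either strand, for mitotic genes, replication genes and all promoters of the RefSeq table. The CHR marks 68.0% of mitotic and 7.14% of replication promoters, and the E2F site 0% and 42.9%.

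Libraries held 8270643 to 15562378 reads, so that 1 read was worth 0.0612 to 0.134 normalized counts. The sorted cells also held transcripts of other types. Oligodendrocyte markers (12 genes, Mbp and Cnp among them) summed to 56880 to 117800 normalized counts per library, above the 2728 to 16450 of 20 astrocyte markers in every library. Granulocyte precursor markers (13 genes, led by S100a8, Ngp and S100a9) ranged between 55.2 and 195 in the 8 injured libraries other than HS 1 week 3, which had 2900, and NI libraries had 752, 6017 and 10790. Microglia and macrophage markers (17 genes, Ctss and C1qb among them) reached 13650 in FT 1 week, 16340 in HS 2 weeks 1, 16750 in HS 1 week 3, and 7262 and 9371 in NI 2 and NI 3, with 1004 to 4617 in the other 7 libraries. Aldh1l1 itself, the gene whose promoter drove the sort, had 87.4, 106 and 116 in FT 2 weeks, 48.5 in FT 1 week, 35.4 and 80.4 in HS 2 weeks, 73, 127 and 13.8 in HS 1 week, and 82.3, 59.4 and 10.2 in NI. Astrocyte markers such as Gfap, Slc1a2, Aqp4 and Gja1 had reads in every library, but HS 1 week 3 and NI 3 had the lowest Aldh1l1 of their groups. NI 2, NI 3 and HS 1 week 3, the libraries richest in granulocyte precursor transcripts, are left out where results are given without them (an analysis chosen after seeing the data). NI then keeps 1 library, whose spread is taken to be that of the other groups.

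Mitotic transcripts varied more than replication transcripts between libraries of the same group, with a pooled SD within groups of 0.625 against 0.498 for the mean log2(normalized count + 1) of each class, a difference that was not tested. The 28 mitotic genes summed to 139, 126 and 156 in FT 2 weeks, 336 in FT 1 week, 226 and 124 in HS 2 weeks, 146, 144 and 388 in HS 1 week, and 196, 499 and 759 in NI. Every FT 2 weeks library lay below every NI library, but NI 1 (196) lay below FT 1 week, HS 2 weeks 1 and HS 1 week 3. The 14 replication genes summed to 318, 346 and 292 in FT 2 weeks, 382 in FT 1 week, 352 and 297 in HS 2 weeks, 318, 285 and 434 in HS 1 week, and 270.1, 362 and 575 in NI. NI 1 was here the lowest of all 12 libraries. The 6 G1 and G1/S genes summed to 118, 109.5 and 136 in FT 2 weeks, 116 in FT 1 week, 129.5 and 112 in HS 2 weeks, 119, 177 and 186 in HS 1 week, and 208, 175 and 189 in NI. The ratio of the mitotic to the replication sum was 1.38 and 1.32 in NI 2 and NI 3, 0.727 in NI 1, 0.893 in HS 1 week 3, 0.878 in FT 1 week and 0.363 to 0.644 in the other 7 libraries. In such sorted pools, fewer dividing cells and less RNA per dividing cell cannot be told apart.

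**Figure D2:**
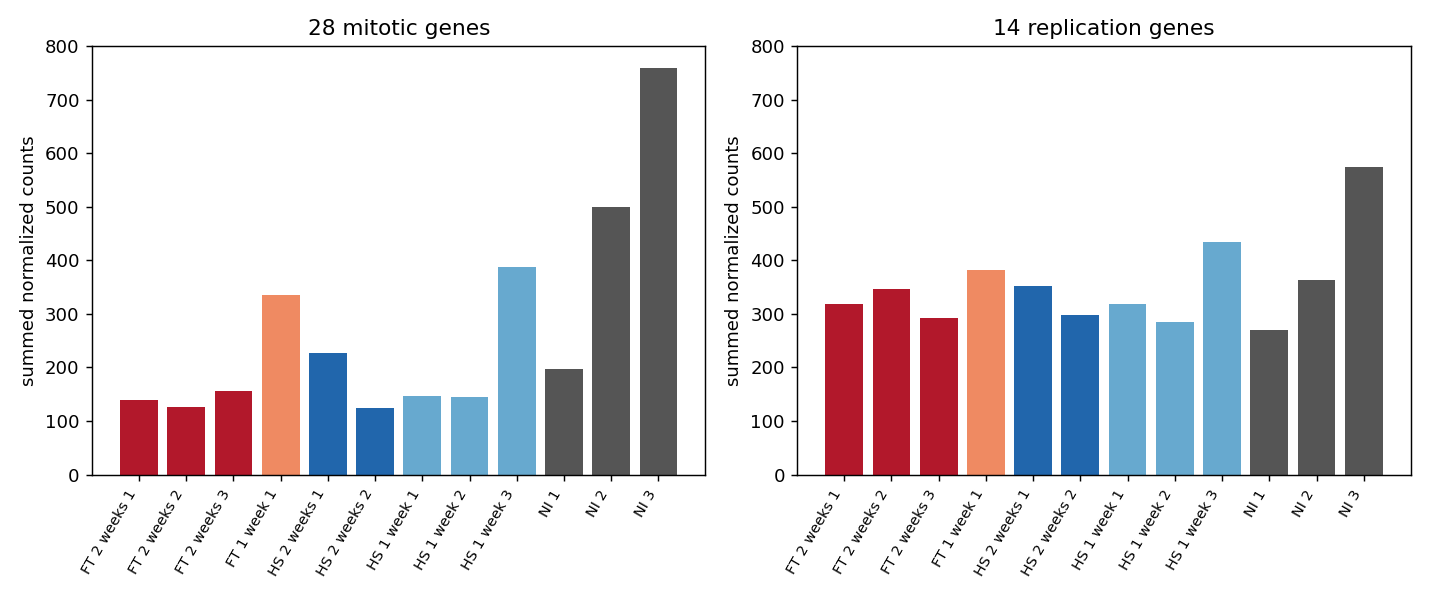
Summed normalized counts of the 28 mitotic genes (left) and the 14 replication genes (right) in each of the 12 libraries, on the same scale. Mitotic sums span 124 to 759 and replication sums 270.1 to 575, with NI 3 highest in both.

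The spread rested on the same few libraries for nearly every mitotic gene. Over all 12 libraries, the median ratio of the highest to the lowest was 8.44 for mitotic, 4.02 for replication and 5.54 for G1 genes, against 2.69 over the 16153 genes with reads in all 12 libraries. Such ratios grow at low counts, and the classes were not matched for level. The median number of reads in the lowest library was 19.5 for mitotic, 73.5 for replication and 37.5 for G1 genes. NI 3 was the highest library for 22 of 28 mitotic and 10 of 14 replication genes. NI 2 and NI 3 each exceeded NI 1 in 28 of 28 mitotic genes, and HS 1 week 3 exceeded both other HS 1 week libraries in 28. HS 2 weeks 1 exceeded HS 2 weeks 2 in 27, and FT 1 week exceeded all FT 2 weeks libraries in 27. For replication genes these counts were 13, 12, 10 and 8 of 14. The same orders were not counted over all genes, and genes measured in the same library are not replicates. The libraries high in mitotic transcripts were those high in microglia and macrophage markers. NI 2, NI 3 and HS 1 week 3 among them were also high in granulocyte precursor markers and in oligodendrocyte progenitor markers (12 genes, 1394 to 1490, against 497 to 765 in the other 9). T and NK cell markers (9 of 12 measured) were highest in these 3 and in FT 1 week (31.8 to 87.2, against 5.47 to 14.8 in the other 8). B cell precursor markers (11 genes) were highest in NI 3 (156), followed by HS 1 week 3 (130) and HS 2 weeks 1 (121). In these injured libraries Blnk alone made 106 and 104 of the sum. Erythroid markers (7 of 12 measured) were highest in NI 3 (71.2) and NI 2 (40.3), against 5.62 to 28.4 elsewhere. FT 1 week had the lowest granulocyte precursor sum (55.2) beside a mitotic sum of 336. The part of these cell types in the mitotic levels was not tested.

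**Figure D3:**
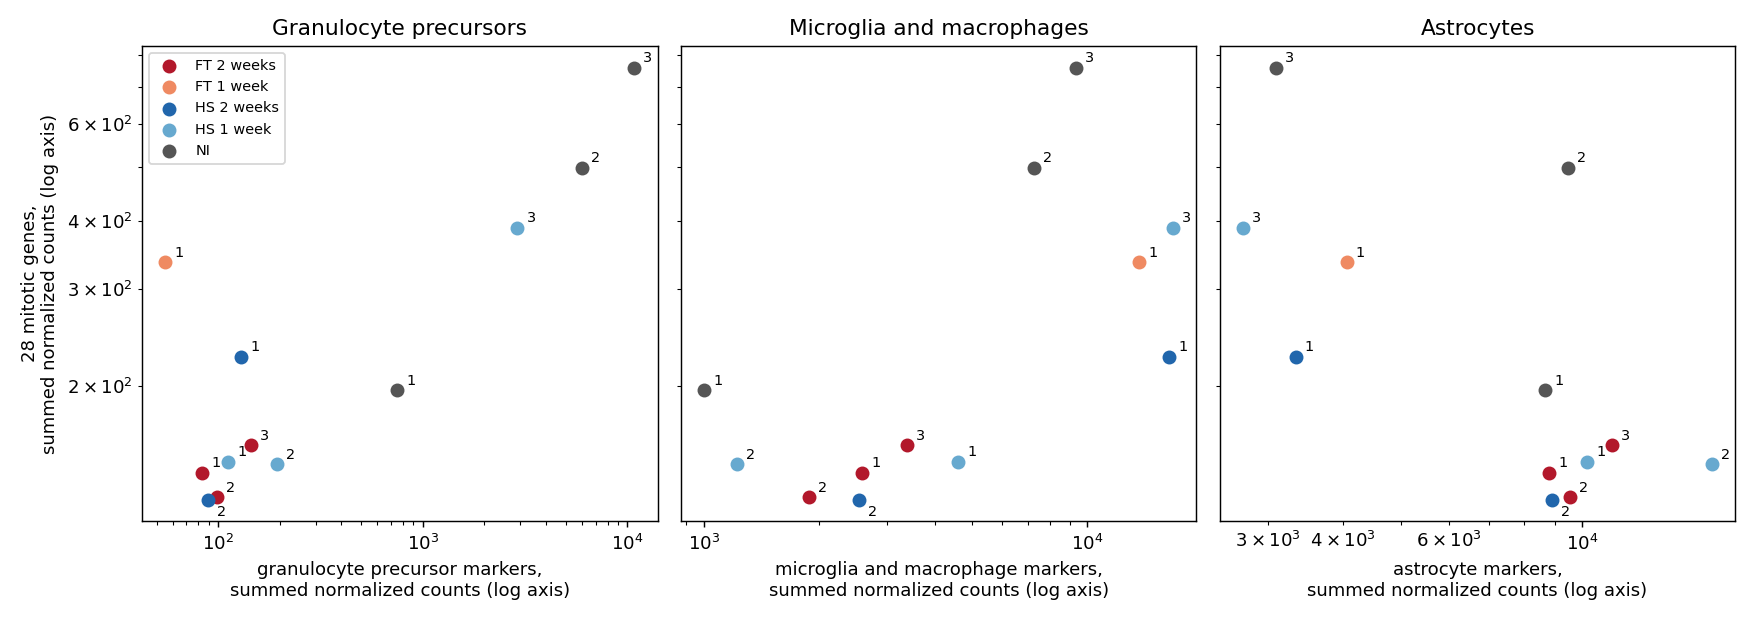
Summed normalized counts of the 28 mitotic genes (vertical, log axis) against the sums of 13 granulocyte precursor, 17 microglia and macrophage and 20 astrocyte markers (horizontal, log axes), 1 point per library, labelled with its replicate number. The libraries with mitotic sums of 226 to 759 all hold at least 7262 microglia and macrophage counts, and 3 of them at least 2900 granulocyte precursor counts.

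In FT after 2 weeks, all 28 mitotic genes had a lower fitted level than in NI, with a median log2 fold change of -1.19 against -0.57 for the 14 replication genes, -0.58 for the 6 G1 genes and -0.015 for all genes tested. Fold changes here are fitted on log2(normalized count + 1), a scale that understates the change of low genes. None of the 48 genes passed limma-trend at an adjusted p of 0.05 and a 2-fold change, where 0.0427% of all genes were called. At an unadjusted p under 0.05, 26 of the 48 were lower (21 mitotic, 3 replication, 2 G1) and 0 higher, against 972 lower (5.93%) and 801 higher of 16388 genes. The likelihood ratio test of edgeR on the recovered reads, which is nearer to the study's own test, called 9 of the 48 lower at the same thresholds, against 1.75% of all genes in that direction: Top2a, Hmgb2, Cks2, Rrm2, Ube2c, Kif23, Nusap1, Mki67 and Cenpa. DESeq2 also called 9 lower (1.49% of all genes) and the quasi-likelihood test of edgeR 0. The FT 2 weeks libraries lay below all NI libraries for 16 of 28 mitotic, 3 of 14 replication and 2 of 6 G1 genes, against 7.99% of all genes. The calls moved with the libraries left out, for the 48 genes and for all genes alike. The likelihood ratio test called 0 of the 48 without NI 3 (0.586% of all genes lower) or without FT 2 weeks 2 (0.342%), and 1 without FT 2 weeks 1 (0.391%). It called 3 without NI 2 (0.506%), 5 without FT 2 weeks 3 (0.519%), 17 without HS 1 week 3 (3.39%) and 25 without NI 1 (5.35%). Without the 3 libraries rich in granulocyte transcripts it called 0 (0.195%), and the medians were -0.38 for mitotic and 0.096 for replication genes. In the same comparison it called lower 11 of 13 granulocyte precursor markers (sums of 83.6 to 145 in FT 2 weeks and 752 to 10790 in NI). It also called lower 6 of 11 B cell precursor, 4 of 12 oligodendrocyte progenitor, 8 of 10 ependymal and 1 of 17 microglia and macrophage markers (1887 to 3385 in FT 2 weeks and 1004 to 9371 in NI), 2 of 9 T and NK cell and 1 of 7 erythroid markers. Other lists lay the other way. All 8 pericyte and fibroblast markers had a higher fitted level in FT 2 weeks (median log2 fold change 1.5, 0 called, sums of 6002 to 11580 in FT 2 weeks and 459 to 7005 in NI), as had 18 of 20 astrocyte markers (median 0.73, 1 called). Among granulocyte precursor markers, Ms4a3 and Cebpe had no read in 2 libraries each and Ctsg in 1, and the B cell precursor gene Vpreb1 had none in 4.

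**Figure D4:**
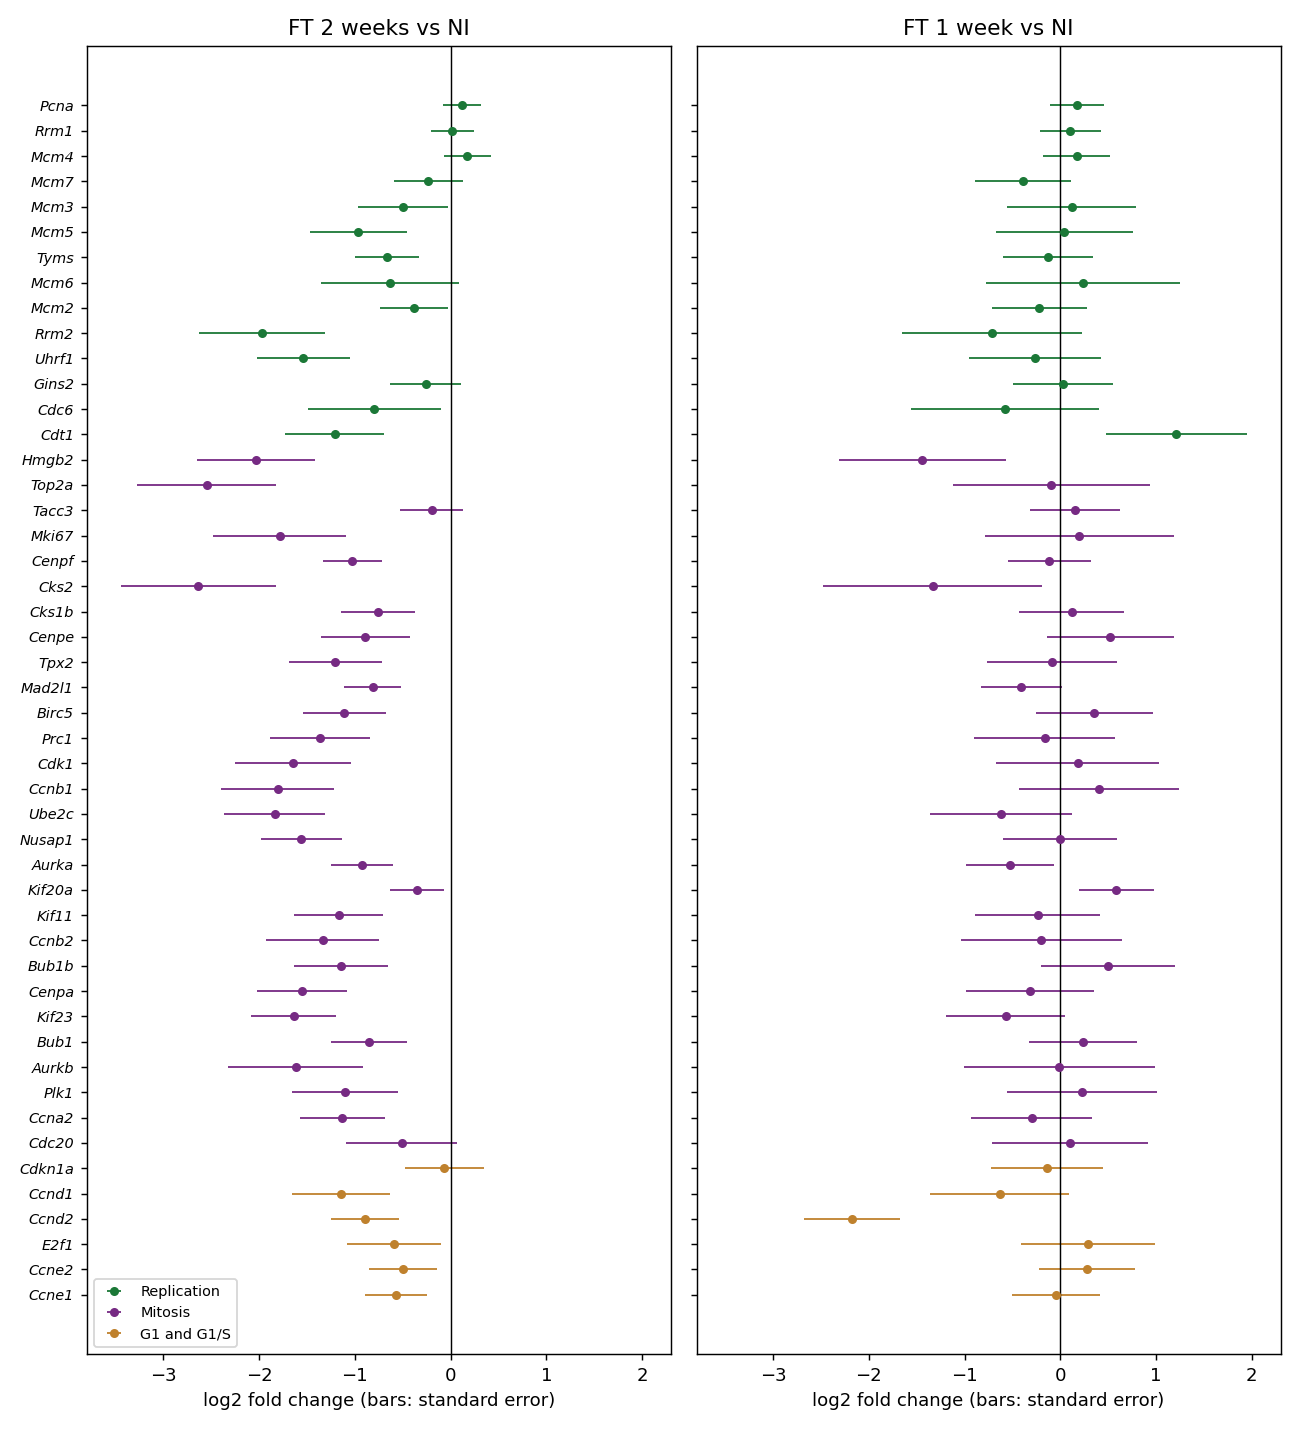
Limma-trend log2 fold change (horizontal axis, bars are standard errors) of each of the 48 genes against NI, for FT 2 weeks (left) and FT 1 week (right), with genes ordered by role and mean level. All 28 mitotic genes lie left of 0 in FT 2 weeks, and 16 of 28 in FT 1 week.

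Genes of mitotic chromatin were among those with the largest differences. Top2a (chr11:98992943-99024189) encodes the topoisomerase that untangles sister chromatids. Top2a had 8.25, 2.45 and 6.3 in FT 2 weeks, 32.6 in FT 1 week, 15.6 and 8.94 in HS 2 weeks, 7.03, 5.72 and 32.4 in HS 1 week, and 12.3, 44.6 and 75.7 in NI. FT 2 weeks and NI did not overlap, and FT 1 week lay within NI (log2 fold change -2.55, SE 0.728, adjusted p = 0.347 by limma-trend and 0.00413 by the likelihood ratio test, for FT 2 weeks). Mki67 (chr7:135689784-135716361) encodes Ki-67, which coats mitotic chromosomes. Mki67 had 5.11, 5.94 and 5.78 in FT 2 weeks, 25.1 in FT 1 week, 12.1 and 5.71 in HS 2 weeks, 7.27, 2.78 and 19.7 in HS 1 week, and 6.99, 28.2 and 49.4 in NI. Its FT 2 weeks libraries lay just under NI 1, and FT 1 week and HS 1 week 3 were far above them (log2 fold change -1.78, SE 0.698, adjusted p = 0.423 by limma-trend and 0.0296 by the likelihood ratio test). Hmgb2 (chr8:57511907-57515999) encodes a DNA-bending chromatin protein. Hmgb2 had 21.8, 26.8 and 32.4 in FT 2 weeks, 40.7 in FT 1 week, 42.3 and 19.8 in HS 2 weeks, 19.4, 18.6 and 74.7 in HS 1 week, and 46, 144 and 213 in NI. It was the most abundant of the mitotic genes, with 19.4 normalized counts per kb of exon, and only HS 1 week 3 among injured libraries exceeded NI 1 (log2 fold change -2.04, SE 0.616, adjusted p = 0.347 by limma-trend and 0.00705 by the likelihood ratio test). Cenpa encodes the histone H3 variant that marks centromeres. Cenpa had 1.39, 1.28 and 2.67 in FT 2 weeks, 5.37 in FT 1 week, 4.06 and 1.54 in HS 2 weeks, 1.7, 3.12 and 6.54 in HS 1 week, and 3.77, 6.89 and 12.4 in NI. FT 2 weeks lay below NI, and FT 1 week and HS 1 week 3 lay within it (log2 fold change -1.55, SE 0.472, adjusted p = 0.347 by limma-trend and 0.041 by the likelihood ratio test). The kinetochore genes Cenpe (4.2 to 20.4) and Cenpf (7.01 to 24.1) were called by neither test.

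Cdk1 (chr10:69335146-69352938) encodes the catalytic subunit of the mitotic kinase. Cdk1 had 1.46, 2.1 and 4.97 in FT 2 weeks, 11.7 in FT 1 week, 9.04 and 2.2 in HS 2 weeks, 4.85, 4.77 and 12.5 in HS 1 week, and 4.4, 11.2 and 20.1 in NI. FT 2 weeks 3 lay above NI 1, so that the groups overlapped (log2 fold change -1.65, SE 0.602, adjusted p = 0.404 by limma-trend and 0.0759 by the likelihood ratio test). Cks2 encodes a small subunit that docks the kinase on its substrates. Cks2 had 2.78, 1.05 and 5.41 in FT 2 weeks, 8.06 in FT 1 week, 10.2 and 3.59 in HS 2 weeks, 2.91, 3.73 and 18.9 in HS 1 week, and 6.29, 29.6 and 52.2 in NI. The lowest and the highest library differed 49.8-fold, the lowest with 9 reads, and FT 2 weeks lay below NI 1 (log2 fold change -2.63, SE 0.809, adjusted p = 0.347 by limma-trend and 0.00808 by the likelihood ratio test). Ccnb2, a cyclin B, had 1.9, 1.63 and 3.04 in FT 2 weeks, 5.91 in FT 1 week, 1.49 and 0.586 in HS 2 weeks, 1.7, 2.6 and 7.71 in HS 1 week, and 2.51, 6.19 and 18.6 in NI. HS 2 weeks lay below every NI library while FT 2 weeks 3 lay above NI 1. The HS 2 weeks difference was called by the likelihood ratio test and not by limma-trend (log2 fold change -1.99, SE 0.664, adjusted p = 0.561 by limma-trend and 0.0497 by the likelihood ratio test). The other members ranged from 0.583 to 15.6 (Ccnb1, the main cyclin B), 0.95 to 8.35 (Ccna2, cyclin A) and 4.73 to 25.8 (Cks1b, the partner of Cks2), each lowest in an injured library and highest in NI 3.

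Among genes that build the spindle and divide the cell, Nusap1 encodes a protein that binds spindle microtubules. Nusap1 had 2.12, 2.68 and 3.19 in FT 2 weeks, 9.67 in FT 1 week, 6.05 and 2.27 in HS 2 weeks, 4.36, 4.77 and 6.97 in HS 1 week, and 4.87, 10.5 and 17.1 in NI. The FT 2 weeks libraries did not overlap NI, and FT 1 week was close to NI 2 (log2 fold change -1.56, SE 0.422, adjusted p = 0.333 by limma-trend and 0.0191 by the likelihood ratio test). Kif23 encodes a motor of the spindle midzone. Kif23 had 1.68, 1.28 and 1.63 in FT 2 weeks, 4.3 in FT 1 week, 2.99 and 1.54 in HS 2 weeks, 2.18, 2.08 and 7.22 in HS 1 week, and 3.46, 8.74 and 10.2 in NI. FT 2 weeks lay below NI 1 in all 3 libraries (log2 fold change -1.64, SE 0.442, adjusted p = 0.33 by limma-trend and 0.0154 by the likelihood ratio test). Tacc3 encodes a protein that stabilizes spindle fibres. Tacc3 had 22.3, 16 and 11.4 in FT 2 weeks, 20.7 in FT 1 week, 15.6 and 13.1 in HS 2 weeks, 16.6, 18.4 and 27.5 in HS 1 week, and 12, 19.8 and 26.2 in NI. It varied least of the mitotic genes (2.41-fold), FT 2 weeks and NI overlapped, and FT 2 weeks 1 was higher than NI 1 and NI 2 (log2 fold change -0.20, SE 0.33, adjusted p = 0.856 by limma-trend and 0.967 by the likelihood ratio test). Tpx2 (4.08 to 19.3), the motor Kif11 (2 to 12.1), the midzone bundler Prc1 (2.1 to 17.1) and the cytokinesis motor Kif20a (3.84 to 10.2) had their highest library in NI 2 or HS 1 week 3. Kif20a shares 29.3% of its exon bases with Cdc23 on the opposite strand, and reads of such stretches cannot be told apart in these unstranded libraries.

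The enzymes and checkpoint proteins of mitosis followed the same libraries. Ube2c (chr2:164769898-164778822) encodes the ubiquitin-conjugating enzyme that works with the anaphase-promoting complex. Ube2c had 1.53, 2.33 and 3.56 in FT 2 weeks, 6.85 in FT 1 week, 3.91 and 2.27 in HS 2 weeks, 2.18, 4.68 and 9.18 in HS 1 week, and 4.72, 13.7 and 19.9 in NI. FT 2 weeks and NI did not overlap, and FT 1 week and HS 1 week 3 lay between NI 1 and NI 2 (log2 fold change -1.84, SE 0.526, adjusted p = 0.347 by limma-trend and 0.0139 by the likelihood ratio test). It shares 22.8% of its exon bases with Tnnc2 on the opposite strand. Cdc20, the activator of that complex, ranged from 0.707 to 6.51, and the checkpoint genes Bub1, Bub1b and Mad2l1 from 1.75 to 8.28, 0.868 to 9.21 and 4.98 to 16.6. The kinases Plk1 and Aurka ranged from 1.21 to 10.6 and 3.36 to 12.4. Aurkb and Birc5 (survivin), partners in the chromosomal passenger complex, ranged from 0.0868 to 12 and 4.08 to 20.7. The lowest Aurkb library, HS 1 week 2, had 1 read.

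Replication genes differed less, and Pcna and Rrm1, the 2 with the highest normalized counts, had close values in all groups. Pcna (chr2:132249162-132253314) encodes the polymerase clamp. Pcna had 95.8, 140.4 and 117 in FT 2 weeks, 121 in FT 1 week, 88.3 and 108 in HS 2 weeks, 110.4, 115 and 101 in HS 1 week, and 94.3, 96.6 and 134 in NI. The highest library was FT 2 weeks 2, and groups overlapped throughout. Per kb of exon Pcna was the most abundant of the 48 genes (45.9 normalized counts per kb; log2 fold change 0.12, SE 0.201, adjusted p = 0.857 by limma-trend and 0.976 by the likelihood ratio test). Rrm1 (chr7:102441695-102469771) encodes the large subunit of ribonucleotide reductase. Rrm1 had 55.5, 59.8 and 38.5 in FT 2 weeks, 53.6 in FT 1 week, 46.9 and 50.5 in HS 2 weeks, 60.2, 49.4 and 62.8 in HS 1 week, and 41.6, 46.3 and 63.8 in NI. Rrm2 (chr12:24708241-24714146) encodes its small subunit, which sets the S phase supply of nucleotides. Rrm2 had 2.85, 2.33 and 7.04 in FT 2 weeks, 10.2 in FT 1 week, 4.7 and 4.84 in HS 2 weeks, 7.4, 6.94 and 18.8 in HS 1 week, and 4.72, 26.7 and 38.2 in NI. Rrm1 varied 1.66-fold and Rrm2 16.4-fold over the same libraries, and FT 2 weeks 3 lay above NI 1 in Rrm2 (log2 fold change -1.97, SE 0.662, adjusted p = 0.377 by limma-trend and 0.0138 by the likelihood ratio test). In the mean of the 4 injured groups against NI, Rrm2 had a log2 fold change of -1.27 (SE 0.555) and was called by the likelihood ratio test (adjusted p = 0.0163), but the value was 0.30 without the 3 libraries rich in granulocyte transcripts.

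The MCM helicase opens the DNA ahead of the fork, and its subunits had differences of either sign. Mcm2 (chr6:88883474-88898780) had 14.2, 13.6 and 9.78 in FT 2 weeks, 14 in FT 1 week, 16.5 and 10.3 in HS 2 weeks, 8.85, 15.1 and 17.3 in HS 1 week, and 12.3, 13.3 and 26.8 in NI. Mcm4 (chr16:15623897-15637400) had 38.4, 38 and 27.4 in FT 2 weeks, 34.1 in FT 1 week, 44.5 and 30.8 in HS 2 weeks, 42.7, 28.8 and 44.5 in HS 1 week, and 24.4, 32.6 and 34.6 in NI. Mcm7 (chr5:138164583-138172422) had 35.9, 35.1 and 25.6 in FT 2 weeks, 28.5 in FT 1 week, 27.8 and 27.8 in HS 2 weeks, 23.4, 19.1 and 45.1 in HS 1 week, and 23.9, 38.6 and 57.4 in NI. NI 3 was the highest library for Mcm2 and Mcm7, and for Mcm4 FT 2 weeks 1 and 2 were above all NI libraries. By limma-trend the FT 2 weeks log2 fold change was -0.38 for Mcm2 (SE 0.352, adjusted p = 0.721), 0.17 for Mcm4 (SE 0.247, adjusted p = 0.831) and -0.23 for Mcm7 (SE 0.357, adjusted p = 0.842). Mcm3 (12.6 to 53), Mcm5 (8.76 to 40.0) and Mcm6 (4.68 to 41.4) were each lowest in HS 1 week 2 and highest in NI 3. Their FT 2 weeks log2 fold changes were -0.50 for Mcm3 (SE 0.474, adjusted p = 0.729), -0.96 for Mcm5 (SE 0.507, adjusted p = 0.524) and -0.64 for Mcm6 (SE 0.719, adjusted p = 0.777), called by neither limma-trend nor the likelihood ratio test. The means were 10.2 in FT 2 weeks and 23.7 in NI for Mcm5, and 9.86 in FT 2 weeks and 21.2 in NI for Mcm6. The licensing factor Cdt1 (chr8:122568015-122573554) had 1.53, 0.35 and 1.48 in FT 2 weeks, 9.94 in FT 1 week, 3.84 and 1.46 in HS 2 weeks, 1.09, 0.781 and 4.04 in HS 1 week, and 1.73, 3.32 and 7.92 in NI. FT 1 week was the highest of all libraries and all FT 2 weeks libraries lay below NI. For FT 2 weeks against FT 1 week only the likelihood ratio test called Cdt1 (log2 fold change -2.42, SE 0.732, adjusted p = 0.314 by limma-trend and 0.0432 by the likelihood ratio test). Its lowest library had 3 reads. Cdc6, which loads the helicase with it, ranged from 0.803 to 12.4, the nucleotide synthase Tyms from 7.55 to 28.9, Uhrf1, which carries DNA methylation to the new strand, from 3.26 to 27.7, and the helicase cofactor Gins2 from 3.96 to 10.8. Gins2 shares 67.3% of its exon bases with Gse1 on the opposite strand.

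Among the G1 genes, Cdkn1a ordered the libraries differently from the rest. It encodes p21, the inhibitor of cyclin-dependent kinases (chr17:29090976-29100727). Cdkn1a had 75.3, 64.3 and 86.3 in FT 2 weeks, 70.9 in FT 1 week, 66.9 and 52.3 in HS 2 weeks, 68.5, 145 and 73.2 in HS 1 week, and 150.4, 72 and 43.9 in NI. NI 3, the highest library for most cell cycle genes, had the lowest Cdkn1a, and NI 1 and HS 1 week 2, the lowest of their groups in summed mitotic transcripts, had the highest (log2 fold change -0.06, SE 0.41, adjusted p = 0.967 by limma-trend and 0.966 by the likelihood ratio test). HS 1 week 1 had nearly the same mitotic sum as HS 1 week 2 (146 and 144) but a Cdkn1a of 68.5. Other groups went the other way: FT 2 weeks 2 and HS 2 weeks 2 were the lowest of their groups in both the mitotic sum and Cdkn1a. Ccnd1 (chr7:144929931-144939925) encodes cyclin D1. Ccnd1 had 18, 19.3 and 19.3 in FT 2 weeks, 27.3 in FT 1 week, 37.9 and 31.6 in HS 2 weeks, 26.1, 15.2 and 61.8 in HS 1 week, and 20.9, 45.4 and 81.8 in NI. All FT 2 weeks libraries lay below NI, narrowly so for NI 1, and 23.4% of the exon bases are shared with LTO1 on the opposite strand (log2 fold change -1.14, SE 0.512, adjusted p = 0.457 by limma-trend and 0.127 by the likelihood ratio test). Ccnd2 (chr6:127125162-127152193) encodes cyclin D2. Ccnd2 had 21.7, 22.6 and 25.9 in FT 2 weeks, 9 in FT 1 week, 18.6 and 24.7 in HS 2 weeks, 21.1, 13.1 and 42.3 in HS 1 week, and 34.1, 49.7 and 51.1 in NI. FT 1 week was the lowest of the 12 libraries, and all injured libraries but HS 1 week 3 lay below NI 1. The likelihood ratio test called Ccnd2 lower in FT 1 week (log2 fold change -2.18, SE 0.503, adjusted p = 0.119 by limma-trend and 0.0343 by the likelihood ratio test). Limma-trend gave the mean of the 4 injured groups a log2 fold change of -1.25 (SE 0.298, adjusted p = 0.118). E2f1 encodes an activating factor of the S phase genes. E2f1 had 1.97, 1.86 and 2 in FT 2 weeks, 4.43 in FT 1 week, 3.13 and 2.27 in HS 2 weeks, 1.82, 0.694 and 6.06 in HS 1 week, and 1.57, 3.58 and 6.41 in NI. NI 3 and HS 1 week 3 were its highest libraries, and NI 1 was under every FT 2 weeks library (log2 fold change -0.59, SE 0.495, adjusted p = 0.696 by limma-trend and 0.674 by the likelihood ratio test). The cyclins E, Ccne1 (0.365 to 2.3) and Ccne2 (0.707 to 3.38), had the lowest mean normalized counts of the 48 genes.

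**Figure D5:**
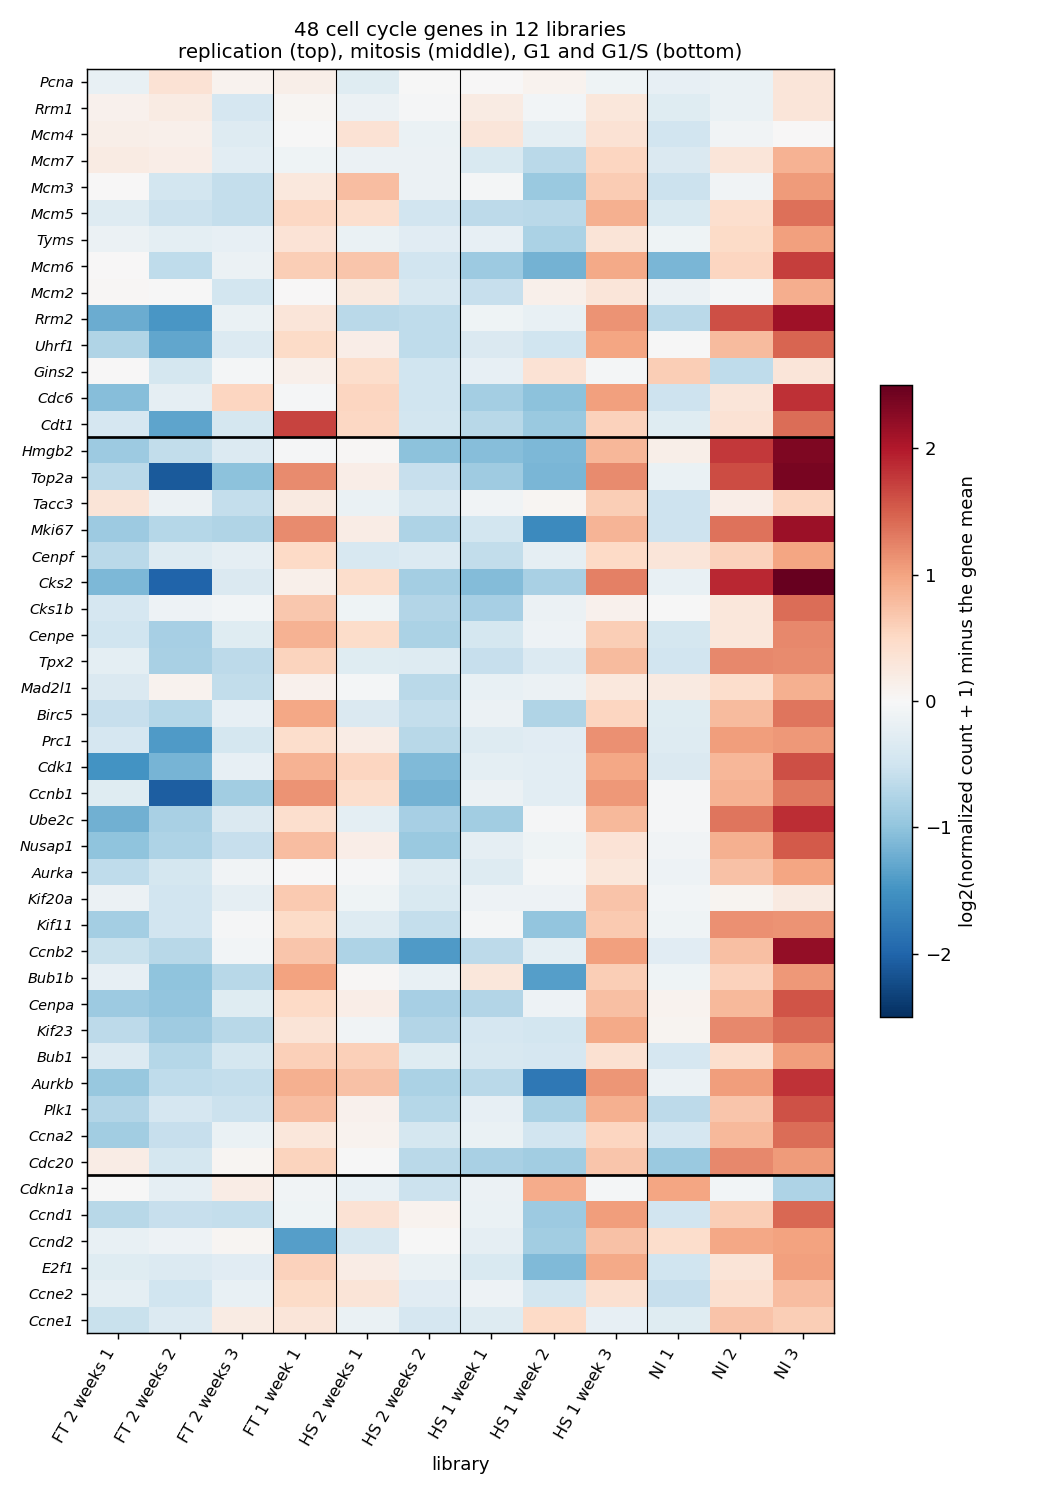
Each of the 48 genes (rows, by role and mean level) in each of the 12 libraries (columns), as log2(normalized count + 1) minus the mean of that gene over the libraries. Columns NI 2, NI 3 and HS 1 week 3 are high for most genes, FT 1 week for mitotic genes, and Cdkn1a is highest in NI 1 and HS 1 week 2.

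The other comparisons called none of the 48 genes by limma-trend, and the quasi-likelihood test called none either. The background was 0.452% of genes for FT 1 week, 0.0061% for HS 1 week, 0.0122% for HS 2 weeks and 0.293% for the mean of the 4 injured groups, each against NI. It was 0.348% for FT against HS at 1 week, 0% for FT against HS at 2 weeks, 0% for HS 2 weeks against 1 week, 0.384% for FT 2 weeks against 1 week and 0.0854% for the interaction of time and severity. At an unadjusted limma-trend p under 0.05, and 0 higher against NI, 1 of the 48 was lower in FT 1 week (Ccnd2; 6.65% of all genes), 3 in HS 1 week (Cenpf, Hmgb2 and Ccnd2; 3.35%), 12 in HS 2 weeks (3.66%) and 13 in the mean of the injured groups (7.1%). The FT 1 week share of the 48 genes was thus below that of all genes. Between injured groups, Cdt1 was higher and Ccnd2 lower in FT than HS at 1 week (5.64% of all genes in either direction). None of the 48 passed for FT against HS at 2 weeks, where 228 of all 16388 genes were higher and 142 lower. None of the 48 passed for HS 2 weeks against 1 week either, where 134 of all genes were higher and 132 lower. Ccnd2 was higher and 7 genes lower in FT 2 weeks than FT 1 week (9.17%), and Cdt1 alone passed for the interaction (7.04%). Lower by the likelihood ratio test were Ccnd2 in FT 1 week (background 0.671%), none in HS 1 week (0.0732%), Ccnb2 in HS 2 weeks (0.336%) and 8 genes in the mean of the injured groups (3.07%): Hmgb2, Ccnd2, Cks2, Rrm2, Ube2c, Top2a, Ccnb2 and Kif23. DESeq2 called lower 1 in FT 1 week (1.23% of all genes), 0 in HS 1 week (0.0915%), 1 in HS 2 weeks (0.323%) and 5 in the mean (2.18%). Against NI, the median log2 fold change was -0.05 for mitotic and 0.04 for replication genes in FT 1 week, -0.74 and -0.54 in HS 1 week, -0.97 and -0.37 in HS 2 weeks, and -0.72 and -0.34 in the mean. Without the 3 libraries rich in granulocyte transcripts, the mitotic median was 0.815 in FT 1 week, and the mitotic and replication medians were -0.05 and 0.22 in HS 2 weeks and in the mean. None of the 48 genes had all 9 injured libraries below all NI libraries, an order that was not counted over all genes. All HS 2 weeks libraries lay below all NI libraries for 10 of 28 mitotic genes, 1 replication gene and 1 G1 gene, against 11.6% of all genes. With quality weights for the libraries, limma-trend called lower 27 of the 48 in FT 2 weeks (5.93% of genes), 25 in HS 1 week (5.47%) and 18 in the mean of the injured groups (5.24%). In HS 2 weeks the same weights called 0 of the 48, with 40 of all 16388 genes called lower.

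Between the injuries and times, the mitotic medians were largest where FT 1 week took part. FT 1 week was above HS 1 week in the fit for 28 of 28 mitotic genes (median log2 fold change 0.64) and 12 of 14 replication genes (0.20), while the mitotic sum was 336 in FT 1 week and 388 in HS 1 week 3. FT 2 weeks was below FT 1 week for 28 of 28 mitotic genes (-1.17) and 12 of 14 replication genes (-0.41), and the likelihood ratio test called Cdt1 alone (background 0.958%). These comparisons rest on the same FT 1 week library, whose microglia and macrophage sum was 13650, against 1887 to 3385 in FT 2 weeks. FT against HS at 2 weeks had medians of -0.30 and -0.21 for mitotic and replication genes, and HS 2 weeks against 1 week -0.27 and -0.01.

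Other genes of the pathway were also lower among mitotic than replication genes in the median. Of 50 further mitotic genes, 0 were called by limma-trend in FT 2 weeks and 5 were called lower by the likelihood ratio test (1.75% of all genes). The median log2 fold change was -0.79. At an unadjusted p under 0.05, 19 were lower and 1 higher, against 972 lower (5.93%) and 801 higher of all 16388 genes. Their sums were 1267, 1301 and 979.5 in FT 2 weeks and 1052, 988.7 and 1104 in NI. Anln was the largest part of these sums, with means of 719 in FT 2 weeks and 445 in NI. The kinase gene Pbk had 4.46, 2.45 and 2.89 in FT 2 weeks and 6.29, 14.7 and 24.8 in NI, and the kinetochore gene Nuf2 had 3.87, 3.03 and 2.37 in FT 2 weeks and 3.77, 20.9 and 15.3 in NI. Ckap2, whose protein binds spindle microtubules, had 1.68, 1.16 and 1.04 in FT 2 weeks and 1.34, 8.49 and 10.3 in NI, and the cohesion gene Cdca5 had 1.1, 0.35 and 0.296 in FT 2 weeks and 1.02, 3.7 and 6.48 in NI. NI 1 was the lowest NI library for all 4, and FT 2 weeks overlapped NI for Nuf2, Ckap2 and Cdca5. The fifth gene called was Depdc1a. In the mean of the injured groups, Pbk, Cdca5, Depdc1a and Nek2 were called lower by the likelihood ratio test (3.07% of all genes). Of 38 further replication genes neither test called any in FT 2 weeks (median -0.31). At an unadjusted p under 0.05, Tk1, Prim2, Slbp and Clspn were lower and 0 higher (5.93% of all genes lower). Of 21 measured cyclin-dependent kinases, their inhibitors, pocket proteins and E2F factors, neither test called any (median -0.46, with E2f2 and E2f4 lower and Cdkn2b higher at an unadjusted p under 0.05). Of 12 p53 targets, neither test called any (median -0.18, with Eda2r alone under an unadjusted p of 0.05, higher), but their sum reached 2264 in HS 1 week 3, of which the antiproliferative gene Btg2 made 1931, against 393 to 1032 in the other 11 libraries.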

How the data were processed

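RNA-seq of sorted eGFP-positive spinal cord cells was analysed in 12 libraries of 5 groups. Poly(A) RNA was amplified with a method that does not mark strand. The authors mapped reads with TopHat2 (version 2.0.9, mm10), counted them per gene with HTSeq (version 0.5.4p3), dropped very low genes and scaled by library size with edgeR. The deposited signal values are these normalized counts per gene. Their column totals ranged from 846082 to 1133494, so the scaling was not to equal totals. The worth of 1 read was 0.9988 to 0.9991 times that under the TMM scaling of edgeR, which uses effective library sizes. Each column was a whole multiple of 1 step for 100% of values within 1e-06, which gave back the reads (8270643 to 15562378 per library, 1 read worth 0.0612 to 0.134). No interval for counting error is given. The spread between libraries exceeded sampling noise in every replicate pair as a mean over genes. That mean does not cover single members with few reads, such as Ccne1 (5 in its lowest library).

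Limma-trend (limma 3.58.1, R 4.3.3) was fitted to log2(value + 1) with 1 coefficient per group over all 12 libraries, for the 16388 genes whose mean reached 0.5 in any group. P-values were adjusted by Benjamini-Hochberg over all of them. Calls needed an adjusted p below 0.05 and a 2-fold difference or more. Recovered reads were tested with edgeR 4.0.16 (likelihood ratio and quasi-likelihood) and DESeq2 1.42.0. Limma-trend, both edgeR tests and DESeq2 were run on simulated counts with known changes, for FT 2 weeks against NI only. The simulation gave all libraries the same spread and no shift of a whole library, and the other settings and comparisons were not simulated. Motifs were searched in RefSeq promoters (GRCm38.p6) and gene positions are GRCm38.

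Values by library are given for genes called by the likelihood ratio test, for the 4 of highest mean in each role and for 7 genes known as markers of the cycle. Of other pathway genes up to 4 per comparison are given. The genes and lists were chosen with earlier results of these data known. Alternatives were other pseudocounts, filters, scalings, weights, tests and samples, and leaving out each library.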

Additional observations from a re-analysis of the deposited data

Results flagged for a closer look

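In 2 genes, FT 1 week (1 library) lay above all NI libraries and every FT 2 weeks library lay below all of them, for which they were picked. Neither limma-trend nor the likelihood ratio test called these genes against NI, and with library weights limma-trend called Cdt1 in FT 2 weeks (adjusted p = 0.0414). Without weights, in FT 1 week the limma-trend log2 fold change was 1.21 for Cdt1 (adjusted p = 0.582) and 0.59 for Kif20a (adjusted p = 0.628), and in FT 2 weeks it was -1.21 (adjusted p = 0.448) and -0.35 (adjusted p = 0.677). The nearest FT 2 weeks and NI libraries had 21 and 22 reads of Cdt1, and 70 and 69 reads of Kif20a. FT 2 weeks against FT 1 week gave a log2 fold change of -2.423 for Cdt1 and of -0.939 for Kif20a. The pick itself fixed the direction of this difference, so a p-value for it would be no support. How many of all genes have the same order of libraries was not counted.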

How the results depend on the processing

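Of the 48 genes, limma-trend called 0 in every comparison. With quality weights for the libraries it called 1 in FT 1 week, 27 in FT 2 weeks, 25 in HS 1 week, 0 in HS 2 weeks and 18 in the mean of the injured groups, each against NI. The likelihood ratio test called 1 in FT 1 week, 9 in FT 2 weeks, 1 in HS 2 weeks, 8 in the mean and 1 in FT 2 weeks against 1 week. DESeq2 called 1 in FT 1 week, 9 in FT 2 weeks, 1 in HS 2 weeks and 5 in the mean. With only the groups compared in the fit, limma-trend called 12 in FT 2 weeks against 1 week, a fit with 1 library in an arm. Over all genes, the alternatives called 36 to 1575 in FT 2 weeks against 1 week, where the main fit called 63. The share of all genes is not given for the fit that called 12, so that number has no background. Other pseudocounts, filters and scalings called 0 of the 48.

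Leaving out 1 library, limma-trend called 0 to 1 in FT 1 week, 0 to 9 in FT 2 weeks (9 without NI 1) and 0 to 2 in the mean. On the same terms the likelihood ratio test called 0 to 1 in FT 1 week, 0 to 25 in FT 2 weeks (with 0.342% to 5.35% of all genes called lower), 0 to 6 in HS 1 week (6 without HS 1 week 3), 0 to 4 in HS 2 weeks (4 without NI 1), 0 to 17 in the mean (0 without NI 3, 17 without NI 1, 14 without HS 1 week 3), 0 to 1 in FT against HS at 1 week, 0 to 2 in FT 2 weeks against 1 week and 0 to 3 in the interaction. For FT 2 weeks against NI, the share of all genes called lower also rose, from 1.75% to 5.35% without NI 1 and 3.39% without HS 1 week 3. No such share is given for the other ranges, so they cannot be weighed against all genes.

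Leaving out the 3 libraries rich in granulocyte transcripts was chosen after seeing the data, as was leaving out libraries in the likelihood ratio test. NI then keeps 1 library, so effect sizes alone are given here. Without these 3 libraries, the median log2 fold change of mitotic genes was 0.815 in FT 1 week, -0.384 in FT 2 weeks, -0.05 in HS 2 weeks and -0.048 in the mean. That of replication genes was 0.096 in FT 2 weeks, 0.215 in HS 2 weeks and 0.225 in the mean. Rrm2 in the mean turned to 0.303 by limma-trend and 0.383 by edgeR's likelihood ratio test. The cause was not tested.

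Over all genes in FT 2 weeks against NI, limma-trend called 5 higher and 2 lower, the quasi-likelihood test 4 and 0, the likelihood ratio test 77 and 286, DESeq2 96 and 244, and limma-trend with weights 475 and 972. In the mean these numbers were 42 and 6, 25 and 7, 167 and 503, 184 and 358, and 340 and 859. Deviations from the group mean correlated between -0.478 and 0.718 for libraries of the same replicate number and between -0.725 and 0.667 for the others. These overlapping ranges cannot settle whether replicate numbers pair the libraries. With the replicate number as a block, FT 1 week left out, 0 of the 48 were called. The block moved the calls over all genes to 26 in FT 2 weeks, 7 in HS 1 week and 6 in HS 2 weeks. The lowest library of Aurkb had 1 read and that of Cdt1 3, so differences among the lowest values are not resolved at this depth.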
